A study of Mus musculus with 40 samples.

Results

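The integrin and laminin genes were followed across astrocyte fractions of 4 brain regions in mice that had been through social defeat. Members were taken by symbol alone, every gene named as an integrin alpha subunit, an integrin beta subunit or a laminin chain. The rule uses no measured value, but it was chosen with earlier results of these data known. The rule gave 37 genes of the 32531 in the count files, 18 integrin alpha genes, 8 integrin beta genes and 11 laminin genes. Integrins are transmembrane receptors built of 1 alpha and 1 beta chain that tie a cell to its matrix. Laminins are large trimers of an alpha, a beta and a gamma chain that form the sheet of a basement membrane. In the brain, astrocyte endfeet lie on such a membrane around blood vessels and under the pia, and astrocytes, endothelial cells, pericytes and meningeal cells each contribute laminin chains to it.

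All mice carried the transgene Tg(Aldh1l1-EGFP/Rpl10a)JD130Htz, in which the Aldh1l1 promoter, active in astrocytes, drives a ribosomal protein fused to EGFP. Ribosomes with the tag were pulled down with antibodies to EGFP and the RNA bound to them was sequenced, a method known as translating ribosome affinity purification. Stressed mice met a CD1 aggressor daily, with 10 minutes of contact on each of 10 days, and then avoided social contact, resilient mice had the same exposure and still sought contact, and control mice lived in groups and were not defeated. Tissue was taken 2 days after the last defeat. Each library was a pool of at least 2 mice, for the nucleus accumbens of 4 to 6, and the labels give neither age nor sex. There were 5 stressed, 4 resilient and 3 control libraries of prefrontal cortex. Hippocampus gave 5 stressed, 3 resilient and 3 control libraries, nucleus accumbens gave 4, 3 and 3, and caudate putamen gave 3, 2 and 2.

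The 40 libraries held 21.3 to 33.0 M counts in genes. The 14 astrocyte markers had counts in every group and summed to between 22648 and 47166 CPM (read counts scaled to library size) per library. Unpurified tissue was not analysed here, so RNA carried along from other cells cannot be subtracted. In such bulk fractions fewer cells of a type and less RNA per cell cannot be told apart. The labels do not say which regions came from the same mice, and p-values measure the spread between pools.

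Before any comparison, 1 property of the libraries has to be stated. The submitters' library names write the region in a long or a short form, and what the forms stand for is not given. In the prefrontal cortex stressed replicates 4 and 5, resilient replicates 1 to 3 and control replicates 1 and 2 carry the long form, and the remaining libraries the short one. Each library's deviation from its region's mean was also correlated with gene length across 12057 to 12351 genes, as a description of that library. The correlation ran from −0.33 to 0.56 in the 17 stressed libraries, from −0.409 to 0.275 in the 12 resilient libraries and from −0.404 to 0.051 in the 11 control libraries. It was above 0.4 in 6 libraries, all stressed, among them prefrontal replicates 4 and 5 at 0.547 and 0.469. Integrin and laminin transcripts are long, and counts without these 6 libraries are given where members were called.

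The promoters of 4 members are shown because of the contrasts described below between sets of stressed prefrontal libraries. Itgb5, Itgb1 and Itgav were highest in 1 set and Lamb1 in another, while Itgb1 and Itgav were called higher in both. The sequences are from RefSeq, build GRCm38.p6, plus strand, and end just before the first annotated transcript base. Capitals mark GGGCGG or its reverse complement CCGCCC, the core of the box bound by Sp1 factors. They lie at chr16:33829415-33829664 for Itgb5, chr8:128685404-128685653 for Itgb1, chr2:83724147-83724396 for Itgav and chr12:31265043-31265233 for Lamb1.
Itgb5: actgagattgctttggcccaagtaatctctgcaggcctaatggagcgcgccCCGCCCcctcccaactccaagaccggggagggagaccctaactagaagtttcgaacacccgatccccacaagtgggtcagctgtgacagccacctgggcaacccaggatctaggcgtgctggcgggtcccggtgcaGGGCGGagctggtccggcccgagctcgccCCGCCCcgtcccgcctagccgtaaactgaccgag
Itgb1: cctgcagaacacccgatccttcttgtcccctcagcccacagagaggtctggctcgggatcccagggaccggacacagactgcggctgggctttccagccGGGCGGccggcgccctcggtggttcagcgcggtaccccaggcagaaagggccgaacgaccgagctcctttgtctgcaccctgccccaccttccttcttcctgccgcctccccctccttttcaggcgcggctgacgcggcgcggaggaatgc
Itgav: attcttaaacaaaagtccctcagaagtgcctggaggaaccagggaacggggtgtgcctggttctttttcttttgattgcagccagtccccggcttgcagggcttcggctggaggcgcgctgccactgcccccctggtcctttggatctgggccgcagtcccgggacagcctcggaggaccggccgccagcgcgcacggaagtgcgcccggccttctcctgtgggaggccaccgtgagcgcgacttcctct
Lamb1: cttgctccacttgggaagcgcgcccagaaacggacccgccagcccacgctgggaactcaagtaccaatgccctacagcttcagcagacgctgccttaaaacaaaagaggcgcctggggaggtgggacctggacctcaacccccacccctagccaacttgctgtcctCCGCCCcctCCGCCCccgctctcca
Itgb5 held 3 such boxes, Lamb1 2, Itgb1 1 and Itgav 0. The GC content of these stretches was 65.2% for Itgb5, 68.0% for Itgb1, 64.4% for Itgav and 63.9% for Lamb1. RefSeq windows of 250 bases before the start were at hand for 23 of the 37 members, and 8 of these held the box on either strand, against 32.7% of all 32851 windows. A CCAAT box was found in 4 of the 23 on either strand, against 33.8% of all windows, and TATAAA in 0, against 12.4%. The members' share with the GGGCGG box lay near that of all windows, and a match says only that the letters are there.

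Itgb5, the beta chain that pairs with alpha v to bind vitronectin, was the most abundant member per length in these fractions. Its level over the 40 libraries had a median of 35.3 CPM per kb of transcript, and its lowest library, at 21.2, lay above the highest library of every other member. Itgb1, the beta chain shared by most matrix-binding integrins, followed with a median of 5.63 CPM per kb and a range of 2.76 to 11.4. Itga7 and Itga6, alpha chains of laminin receptors, had medians of 4.19 and 2.20 CPM per kb. Lamb2, the beta 2 chain of laminin, had a median of 3.86, Itgav, the alpha v chain, 2.86, and Itgb8, a partner of alpha v that activates latent TGF-beta, 1.51. The remaining 30 members had medians of 0.671 CPM per kb or less. The ranges of Itgb1, Itga7, Lamb2, Itgav, Itga6 and Itgb8 overlapped, so their order is that of medians only.

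Several members were close to 0. Itgax, a chain of dendritic cells and macrophages, was listed at 0 in 36 of 40 libraries, and Itgb6, an epithelial partner of alpha v, in 31. Itgad, Itgal, Itgb2 and Itgam, chains of leukocyte integrins, had medians between 0.0411 and 0.0788 CPM per kb. Itga10 and Itga2, collagen-binding chains, and Lama1, a laminin alpha chain, stood at medians of 0.0223, 0.0179 and 0.0164 CPM per kb. Itga2 and Itgax passed the filter on low counts in no fit, and Itga10 passed it only in the fit of all 40 libraries.

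In the prefrontal cortex of stressed mice, a share of the integrin receptor and laminin chains was higher than in control mice. Counts were tested with edgeR's quasi-likelihood F test, and a gene with a Benjamini-Hochberg adjusted p under 0.05 over all genes is called. Against control mice 12 of the 31 members tested were called higher and 0 lower, or 38.7%, whereas 28.1% of all 15491 genes were called, 16.4% higher and 11.7% lower. Their median log2 fold change was 0.90, against 0.04 over all genes tested. By role, these were all 3 laminin-binding alpha chains (Itga3, Itga6, Itga7), the alpha v chain, Itgb1, and 7 of 10 laminin genes tested. None of the 2 collagen-binding, 3 leukocyte alpha, 2 leukocyte beta or 3 alpha v partner beta chains tested was called against control by edgeR, while DESeq2 on the same libraries called the 3 partner chains Itgb3 (adjusted p = 0.048), Itgb5 (adjusted p = 0.0393) and Itgb8 (adjusted p = 0.0432) higher. Of the 31, Itgam, Itgb2, Itgb3 and Lamc3 passed the filter only because of the stressed libraries, so counts over the tested members are descriptions.

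Itgav (chr2:83724397-83806916), whose protein pairs with several beta chains to bind vitronectin and latent TGF-beta, had 31.2, 30.4, 27.1, 20.9 and 18.6 CPM in stressed libraries 1 to 5, 7.35, 11.5, 16.3 and 16.4 CPM in resilient libraries and 7.64, 9.91 and 10.1 CPM in control libraries. Every stressed library lay above every resilient and control library. The log2 fold change of stressed over control was 1.47 ± 0.27 (SE, adjusted p = 0.00322), and of stressed over resilient 1.01 ± 0.24 (adjusted p = 0.0113). Itgb1 (chr8:128685654-128733200) had 31.6, 34.4, 35.01, 17.5 and 16.8 CPM in stressed, 12.9, 13.6, 14.1 and 19.3 CPM in resilient and 10.8, 11.7 and 10.8 CPM in control libraries. Stressed libraries 1 to 3 stood well apart, while libraries 4 and 5 lay below resilient library 4. Itgb1 changed by 1.28 ± 0.28 (adjusted p = 0.0066) against control and by 0.87 ± 0.25 (adjusted p = 0.0235) against resilient libraries.

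Of the 3 laminin-binding alpha chains, Itga6 and Itga7 were highest in stressed replicates 1 to 3, and Itga3 in replicates 4 and 5. Itga3 (chr11:95044474-95076801) had 4.37, 3.17, 4.47, 7.04 and 7.75 CPM in stressed, 2.23, 2.44, 2.96 and 2.05 CPM in resilient and 1.47, 2.17 and 2.88 CPM in control libraries. All stressed libraries were above all others, with replicates 4 and 5 highest, and the change was 1.27 ± 0.29 (adjusted p = 0.00916) against control and 1.14 ± 0.26 (adjusted p = 0.00947) against resilient libraries. Itga6 (chr2:71745616-71858416) had 14.6, 13.6, 13.9, 7.40 and 7.79 CPM in stressed, 6.34, 7.13, 7.11 and 8.60 CPM in resilient and 6.78, 6.90 and 6.72 CPM in control libraries. Here replicates 4 and 5 were close to the other groups, and the change was 0.75 ± 0.25 (adjusted p = 0.0407) against control and 0.67 ± 0.23 (adjusted p = 0.0457) against resilient libraries. Itga7 (chr10:128933818-128958282) had 19.96, 20.3, 18.6, 11.5 and 13.8 CPM in stressed, 8.56, 12.0, 10.7 and 14.7 CPM in resilient and 6.82, 8.15 and 11.9 CPM in control libraries. Its groups overlapped through replicates 4 and 5, replicate 4 with control and both with resilient libraries, with a change of 0.90 ± 0.26 (adjusted p = 0.0228) against control and 0.56 ± 0.23 (adjusted p = 0.0888, not called) against resilient libraries.

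**Figure D1:**
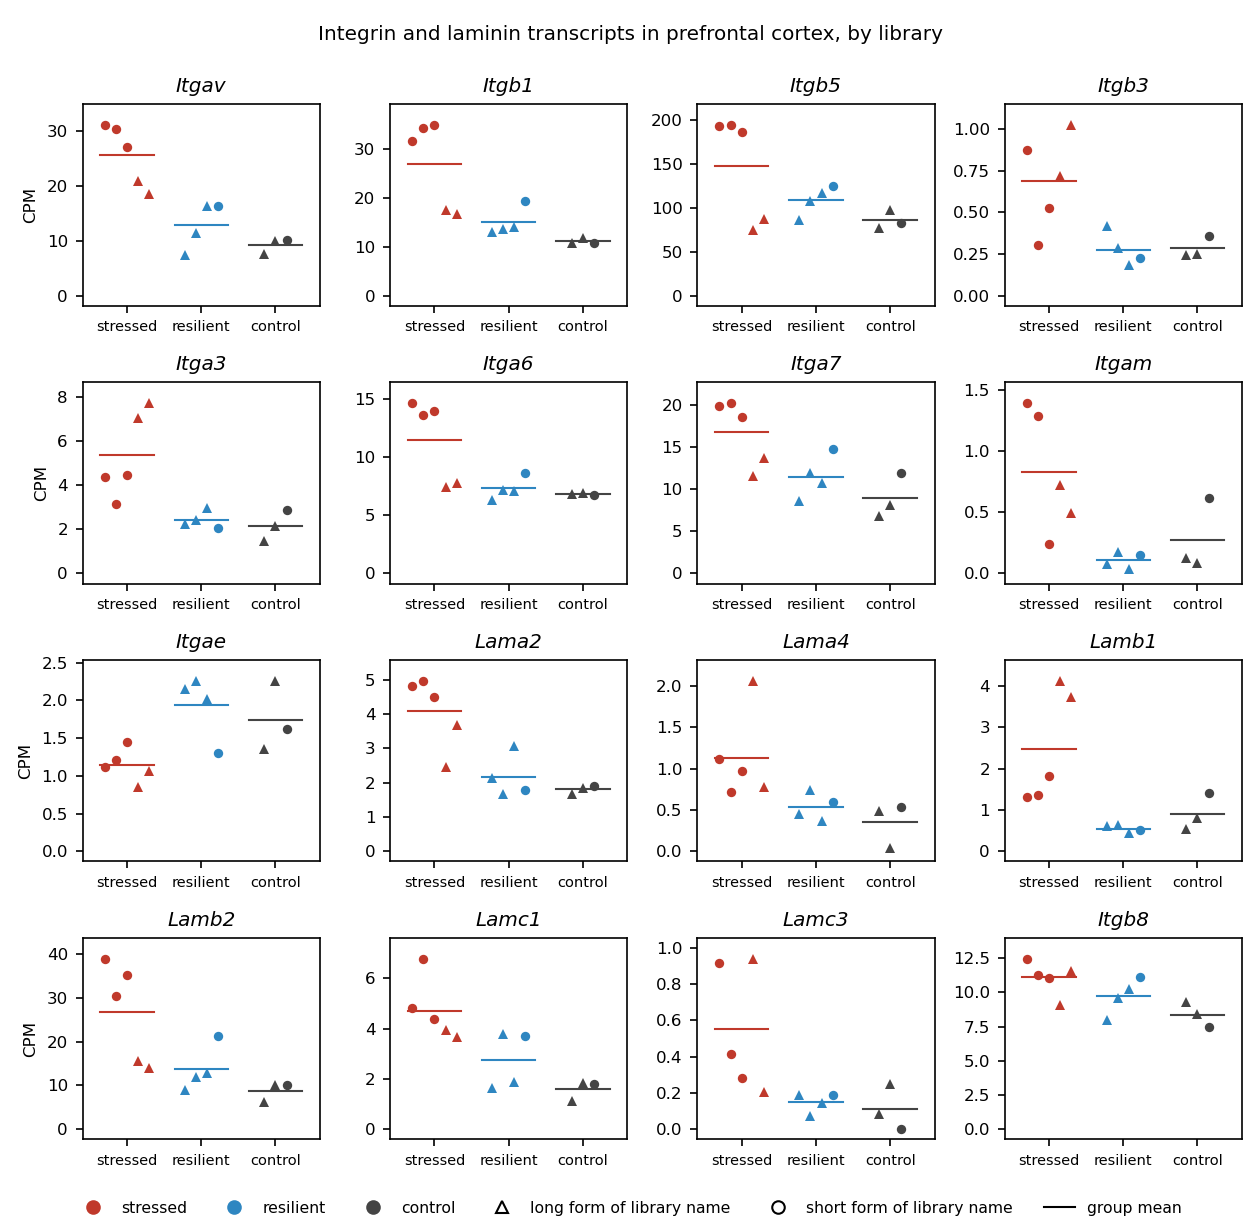
CPM (read counts scaled to library size) of 16 members in each prefrontal library, by condition, with triangles for the long and circles for the short form of the library name and a line at the group mean. For Itgb5, Itgb1 and Itga6 the 3 circles of the stressed group lie high and the 2 triangles low, whereas for Lamb1 and Itga3 the 2 triangles lie highest.

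Among laminin chains, Lamb2, Lamc1 and Lama2 were called against control at the smallest adjusted p-values. Lamb2 (chr9:108479736-108490530), the beta 2 chain, had 39.0, 30.4, 35.3, 15.7 and 14.0 CPM in stressed, 8.86, 11.8, 12.9 and 21.4 CPM in resilient and 6.25, 10.1 and 10.1 CPM in control libraries. Stressed and control libraries did not overlap, and the change was 1.60 ± 0.40 (adjusted p = 0.0123) against control and 0.98 ± 0.35 (adjusted p = 0.0549, not called) against resilient libraries. Lamc1 (chr1:153218922-153332786), the common gamma 1 chain, had 4.81, 6.79, 4.39, 3.95 and 3.65 CPM in stressed, 1.62, 3.78, 1.88 and 3.69 CPM in resilient and 1.10, 1.84 and 1.80 CPM in control libraries. It changed by 1.56 ± 0.35 (adjusted p = 0.00717) against control, with no overlap, and by 0.79 ± 0.30 (adjusted p = 0.0651, not called) against resilient libraries, which it overlapped. Lama2 (chr10:26980036-27619758), the alpha 2 chain, had 4.81, 4.98, 4.51, 2.47 and 3.69 CPM in stressed, 2.15, 1.66, 3.07 and 1.79 CPM in resilient and 1.68, 1.84 and 1.91 CPM in control libraries. All stressed libraries exceeded all control libraries, by 1.17 ± 0.27 (adjusted p = 0.00952), and the change against resilient libraries was 0.93 ± 0.24 (adjusted p = 0.0165).

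Lamb1, Lama4 and Lamc3 were lower in level and more uneven. Lamb1 (chr12:31265234-31329644), the beta 1 chain, had 1.31, 1.36, 1.81, 4.13 and 3.73 CPM in stressed, 0.603, 0.636, 0.433 and 0.521 CPM in resilient and 0.531, 0.794 and 1.40 CPM in control libraries. Stressed libraries were all above resilient libraries, and replicates 1 and 2 fell below the highest control library. The change was 2.14 ± 0.41 (adjusted p = 0.00398) against resilient and 1.39 ± 0.43 (adjusted p = 0.0321) against control libraries.

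Lama4 (chr10:38965515-39110188), an alpha chain of vessel walls, had 1.11, 0.716, 0.967, 2.06 and 0.779 CPM in stressed, 0.453, 0.742, 0.361 and 0.596 CPM in resilient and 0.490, 0.0418 and 0.539 CPM in control libraries. Stressed and control libraries did not overlap, with an adjusted p of 0.0466. Lamc3 (chr2:31887291-31946539), the gamma 3 chain, rested on few reads, 23, 11, 7, 21 and 5 in stressed, 5, 2, 4 and 5 in resilient and 2, 6 and 0 in control libraries. The groups overlapped at stressed replicate 5, and the adjusted p against control was 0.0433. Both Lama4 and Lamc3 were called in few of the fits that left out 1 library, 2 of 12 for Lama4 and 3 of 9 for Lamc3. Itga6 too was called in only 3 of 12 such fits against control and in 3 of 12 against resilient libraries.

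In all, the stressed and control libraries did not overlap for 9 tested members, all higher, where 14.5% of all genes lay apart as higher and 14.6% as lower. The count of 12 calls rested partly on the 3 control libraries. Without control replicate 1 it was 3, and the members still called were Itgav, Itgb1 and Lamc1, which kept an adjusted p of 0.0486 or less in each of the 12 fits that left out 1 library. In the other 11 such fits the count was between 8 and 11. With an offset for each library's gene length trend it was 6 of 31, namely Itga3, Itgav, Itgb1, Lamb1, Lamb2 and Lamc1. In that fit 32.1% of all genes were called, a larger share than of the members. For the fits that left out 1 library the share of all genes is not given here. Their drops are therefore not shown to be particular to the members.

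**Figure D2:**
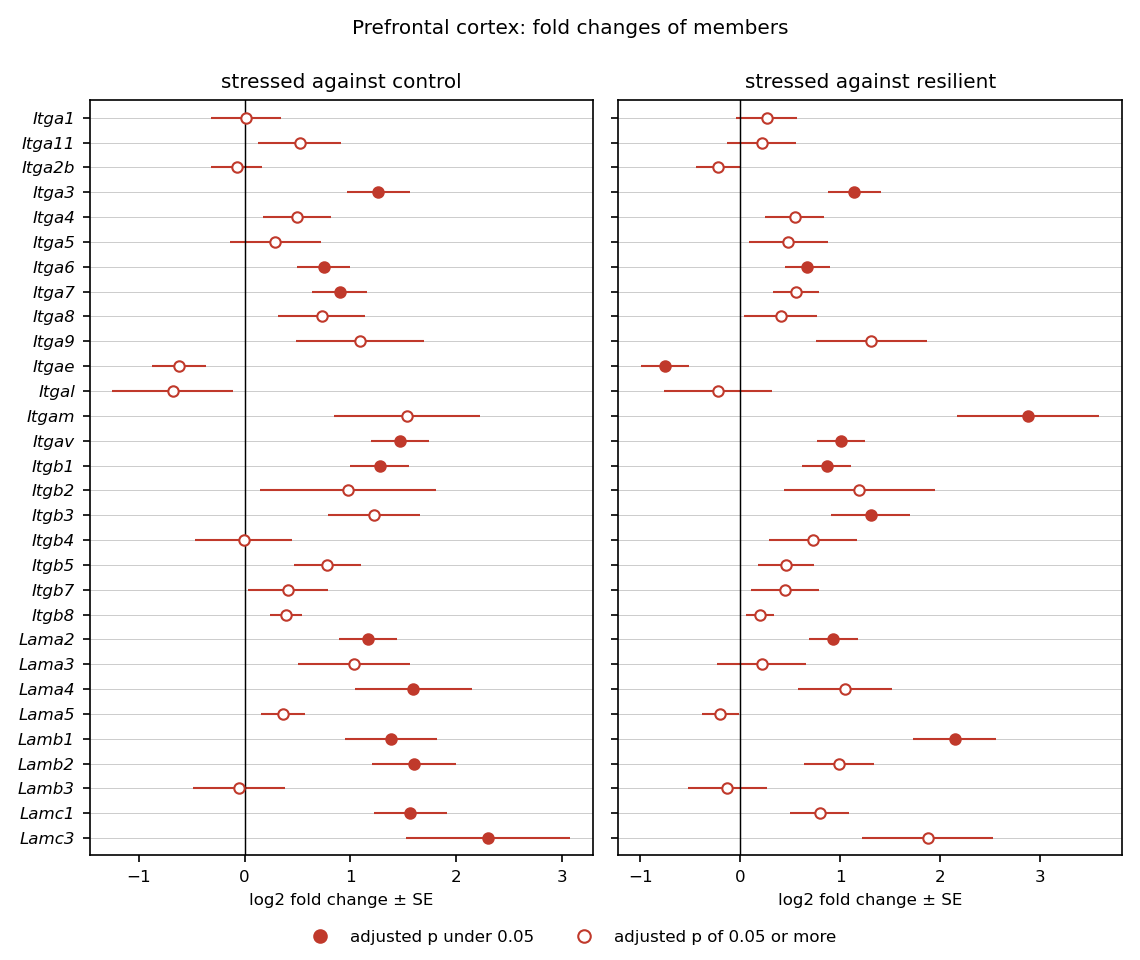
Log2 fold change with its standard error for members tested in the prefrontal cortex, stressed against control on the left and stressed against resilient on the right, with filled points for an adjusted p under 0.05. Filled points lie to the right of 0 in both panels except Itgae on the right, and Itgae and Itgal lie to the left of 0 in both.

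Against resilient mice, stressed mice had 9 members called higher and 1 lower in the prefrontal cortex, 32.3% of the 31 tested, where 25.0% of all genes were called, 14.3% higher and 10.7% lower. The stressed libraries are the same as in the comparison with control, so the comparisons share them. The libraries did not overlap for 6 members, all higher, where 11.4% of all genes lay apart as higher and 11.7% as lower. Besides Lamb1, Itga3, Itgav, Itgb1, Itga6 and Lama2, described above, the members called included Itgam, Itgb3 and Itgae. Itgam and Itgb3 passed the filter only because of the stressed libraries, where they are high. Their calls, and the counts that include them, are descriptions. Itgam, the alpha M chain of microglia and other myeloid cells, had 1.39, 1.28, 0.242, 0.718 and 0.492 CPM in stressed, 0.0754, 0.177, 0.0361 and 0.149 CPM in resilient and 0.123, 0.0836 and 0.611 CPM in control libraries. Every stressed library was above every resilient one, by 2.88 ± 0.71 (adjusted p = 0.0127), while the comparison with control overlapped (1.53 ± 0.69, adjusted p = 0.109, not called). Itgam shares 70.0% of its annotated exon bases with Gm49368 on the same strand, so its reads may be split between them. On the same strand Itga10 shares 34.5% of its exon bases with Gm42957, Itgad 7.68% with Gm17831 and Itga1 4.11% with Gm49395. Overlaps on the opposite strand touch other members, among them Itgb4, at 8.41% of its exon bases, and Lamc3, at 5.6%. Whether the counting used strand is not given.

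Itgb3, the beta chain of the vitronectin receptor of platelets and other cells, had 0.875, 0.302, 0.524, 0.718 and 1.02 CPM in stressed, 0.415, 0.283, 0.180 and 0.223 CPM in resilient and 0.245, 0.251 and 0.360 CPM in control libraries. The groups overlapped at stressed replicate 2, and the change against resilient was 1.30 ± 0.39 (adjusted p = 0.0301). Itgae, the alpha E chain of lymphocytes that live in epithelia, was the 1 member called lower. It had 1.11, 1.21, 1.45, 0.852 and 1.07 CPM in stressed, 2.15, 2.26, 2.02 and 1.30 CPM in resilient and 1.35, 2.26 and 1.62 CPM in control libraries. Its adjusted p was 0.0352 against resilient libraries, and 0.0876 against control libraries, where it was not called. Without resilient replicate 1, 2 or 3 the number of members called was 6, 4 and 6. The 4 that were called in all 12 fits that left out 1 library were Itga3, Itgam, Itgav and Lamb1. Of these, Itgam passed the filter only because of the stressed libraries. The share of all genes called in the fits without 1 library is not given here either.

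No member was called between resilient and control mice in the prefrontal cortex with all libraries. With edgeR 0 of 31 members were called, and 0 of 15491 genes were called in all, or 0%. An unadjusted p under 0.05 was found for 2 members, Lama5 and Lamc1, and for 2.35% of all genes. DESeq2 called 0 members too. The libraries did not overlap for 2 members, both higher, where 3.24% of all genes lay apart as higher and 4.14% as lower. Itgb1 ran from 12.9 to 19.3 CPM in resilient libraries, against 10.8 to 11.7 CPM in control libraries, and Lama5 from 3.11 to 4.47 CPM in resilient libraries, against 2.05 to 2.86 CPM in control libraries. Within the short form of the library name alone, where resilient replicate 4 faces control replicate 3 and borrows its spread from the stressed libraries, Itgb1 (0.85), Itgb5 (0.62) and Lamb2 (1.09, log2 fold changes) were called higher, where 2.70% of all genes were called.

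The stressed prefrontal libraries fell into sets that differed in which members were high. Stressed replicates 1 to 3, of the short name form, stood high in Itgb5, at 193, 195 and 186 CPM. Stressed replicates 4 and 5, of the long form, had 75.2 and 87.8 CPM of Itgb5, near the control values of 77.4, 97.3 and 82.3 CPM, while resilient libraries had 86.6, 107, 117 and 125 CPM. With all 5 stressed libraries Itgb5 was not called by edgeR (0.78 ± 0.31, adjusted p = 0.0777), while DESeq2 (adjusted p = 0.0393) and edgeR with a replicate block (0.99, adjusted p = 0.045) called it. Without replicates 4 and 5 it rose by 1.15 ± 0.12, and without replicates 1 to 3 its fold change was −0.12 ± 0.14. Itgb8 gave 0.39 ± 0.15 with all libraries (adjusted p = 0.0729, not called by edgeR).

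The remaining members can be placed between these ends. Without stressed replicates 4 and 5, 11 members were called against control and 11 against resilient libraries, where 37.8% and 38.1% of all genes were called. Without stressed replicates 4 and 5, against control, the log2 fold changes were 1.59 for Itgb1, 1.67 for Itgav, 1.03 for Itga6, 1.97 for Lamb2, 1.74 for Lamc1 and 1.38 for Lama2, and each was called. Without stressed replicates 1 to 3 they were 0.58 for Itgb1, 1.06 for Itgav, 0.11 for Itga6, 0.71 for Lamb2 and 1.22 for Lamc1, and Itga6 and Lamb2 were not called. Itga3 gave 0.86 without replicates 4 and 5 and 1.71 without replicates 1 to 3, and both were called. Lamb1 gave 0.69 and was not called without replicates 4 and 5, and gave 2.05 and was called without replicates 1 to 3. Itgav, Itgb1, Lamc1 and Itga3 were called higher in both sets.

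**Figure D3:**
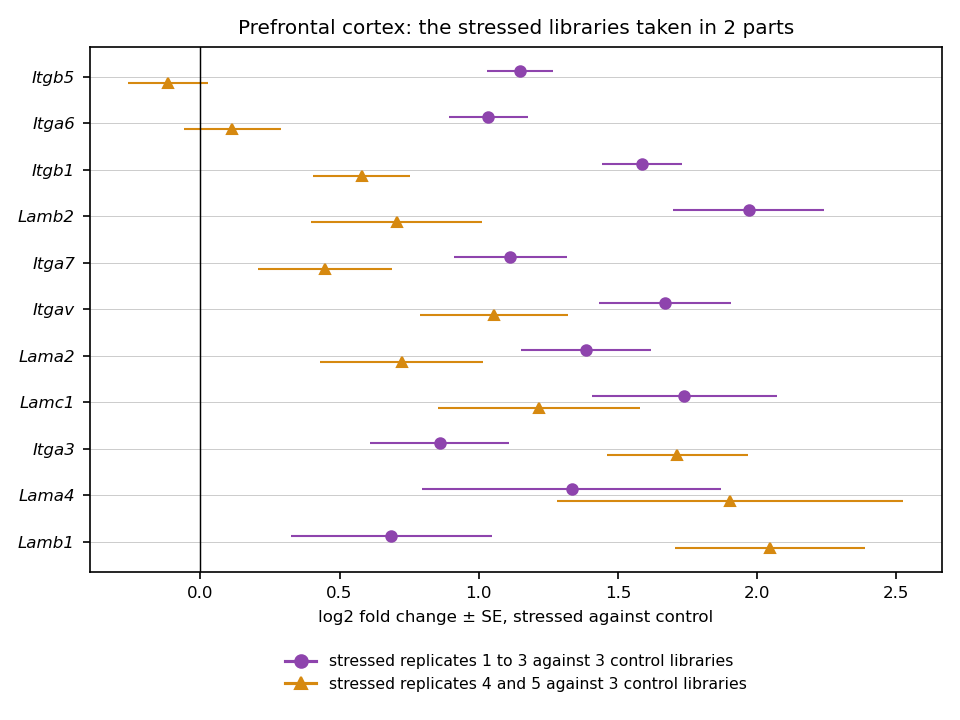
Log2 fold change with its standard error of 11 members, stressed against the 3 prefrontal control libraries, computed without stressed replicates 4 and 5 (circles) and without stressed replicates 1 to 3 (triangles). From Itgb5 to Lamc1 the circles lie to the right, and from Itga3 to Lamb1 the triangles do.

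The split followed the form of the library name, and each form also holds resilient and control libraries. Within the long form, stressed replicates 4 and 5 against control replicates 1 and 2 gave 14 members called, 13 higher, where 54.0% of all genes were called, with Lamb1 at 2.52, Itga3 at 1.98, Itgav at 1.13 and Itgb1 at 0.56. Within the short form, stressed replicates 1 to 3 against control replicate 3 gave 11 called, 10 higher, where 24.9% of all genes were called, with Itgb1 at 1.63, Itgav at 1.54, Lamb2 at 1.77 and Itgb5 at 1.21, where the lone control library is assumed to vary like the others. Itgb4, the beta chain of hemidesmosomes, was called higher in the first of these, at 1.13, and lower in the second, at −1.31. With the name form as a covariate 13 members were called, all higher, where 32.4% of all genes were called.

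Other cell types' transcripts moved with these results in the prefrontal cortex. Marker counts are for stressed against control, where 16.4% of all genes were called higher and 11.7% lower. Of microglia and macrophage markers 10 of 14 tested were called higher, with a summed level of 43.7 to 106 CPM in stressed, 32.1 to 37.4 CPM in resilient and 24.8 to 36.3 CPM in control libraries. Of endothelial markers 4 of 11 were called higher, at 24.7 to 67.4 CPM in stressed, 13.2 to 17.4 CPM in resilient and 12.1 to 16.6 CPM in control libraries. Mural cell markers (4 of 7 higher) ran from 40.2 to 82.5 CPM in stressed, 25.9 to 40.3 CPM in resilient and 25.3 to 32.3 CPM in control libraries, and meningeal fibroblast markers (5 of 11 higher) from 164 to 299.7 CPM in stressed, 151 to 192 CPM in resilient and 141 to 197 CPM in control libraries. Neuron markers (9 of 13 higher) ran from 3060.0 to 5521 CPM in stressed, 2514 to 2990.4 CPM in resilient and 2198 to 2905 CPM in control libraries.

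Astrocyte markers had 5 of 14 called higher and summed to 29766 to 41684 CPM in stressed, 32685 to 43787 CPM in resilient and 37299 to 38171 CPM in control libraries. Oligodendrocyte markers had 5 of 12 higher, and oligodendrocyte precursor markers 3 higher and 1 lower of 9. Choroid plexus markers had 0 of 4 tested called, with a summed level of 3.41 to 42.6 CPM in stressed, 2.27 to 7.39 CPM in resilient and 1.94 to 4.09 CPM in control libraries, where Kcne2 and Slc4a5 were at 0. Leukocyte and platelet markers had 0 of 5 called, and Cd3g was at 0 in every prefrontal group. Cd3g, Ms4a1, S100a9 and Ppbp were at 0 in the control libraries. Vtn and Egfl7 belong to a marker list and to the integrin ligands alike, as do Col1a1, Col1a2 and Col3a1.

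These markers also differed within the stressed group. The microglia and macrophage markers summed to 106, 77.03 and 76.7 CPM in stressed replicates 1 to 3 and to 47.45 and 43.7 CPM in replicates 4 and 5. The neuron markers summed to 3060.0, 3273 and 3203 CPM in replicates 1 to 3 and to 5521 and 5234 CPM in replicates 4 and 5. The endothelial markers were highest in replicate 4, at 67.4 CPM. Microglia, endothelial and mural cells make integrin and laminin chains themselves, and the part of these cells, of the library sets and of the length trend in the members' changes was not tested.

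Genes around the integrins and laminins gave the following picture in the prefrontal cortex, stressed against control. Of 23 tested basement membrane partners of laminin 9 were called higher and 0 lower, with a median log2 fold change of 0.82. Agrn, the heparan sulphate proteoglycan agrin, changed by 1.76 ± 0.24 (adjusted p = 0.000864), Col4a1, a chain of type IV collagen, by 1.43 ± 0.25 (adjusted p = 0.00217), and Dag1, the laminin receptor dystroglycan, by 1.15 ± 0.23 (adjusted p = 0.00403). Of 22 tested integrin ligands other than laminins 15 were called higher and 0 lower, with a median of 1.21. Fn1, fibronectin, changed by 2.66 ± 0.31 (adjusted p = 0.000493), Thbs2, thrombospondin 2, by 1.80 ± 0.26 (adjusted p = 0.00103), and Nov, a matricellular protein, by 1.80 ± 0.33 (adjusted p = 0.00285).

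The inner side of the adhesion gave changes in both directions. Of 36 tested integrin adaptors and signalling genes 7 were called higher and 9 lower, with a median of 0.07. Of all genes 16.4% were called higher and 11.7% lower, so the share called higher lay near that of all genes. Rap1b, a small GTPase that activates integrins, fell by 0.55 on the log2 scale (adjusted p = 0.0016), as did Lims2, a partner of integrin-linked kinase, by 0.65 (adjusted p = 0.00349), and Kank1, a talin-binding protein, by 0.39 (adjusted p = 0.00775). Flna, the actin crosslinker filamin A, rose by 0.76 ± 0.13 (adjusted p = 0.00226), Tln2, talin 2, by 1.83 ± 0.38 (adjusted p = 0.00563), and Bcar1, an adaptor of focal adhesion kinase, by 0.50 ± 0.12 (adjusted p = 0.00996). Of 7 genes for latent TGF-beta, a cargo that alpha v integrins activate, 2 were called higher, Ltbp3 (1.67 ± 0.30, adjusted p = 0.00254) and Ltbp1 (1.11 ± 0.35, adjusted p = 0.0349).

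Against resilient mice the same lists gave 8 of 23 basement membrane partners higher, 13 of 22 ligands higher, 6 of 36 adaptors higher and 8 lower, and 1 of 7 latent TGF-beta genes higher. Of all genes 14.3% were called higher and 10.7% lower there. Fn1 changed by 2.39 ± 0.27 (adjusted p = 0.000572), Col4a1 by 1.22 ± 0.22 (adjusted p = 0.00283) and Fyn, a kinase of the Src family, by −0.43 ± 0.08 (adjusted p = 0.00297). Microglia and macrophage markers had 9 of 14 higher in that comparison, endothelial markers 6 of 11 and meningeal fibroblast markers 7 of 11.

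In the hippocampus, nucleus accumbens and caudate putamen no member was called by edgeR between conditions, and 0% of all genes were called in any of these comparisons. In the hippocampus 32 members were tested, in the nucleus accumbens 28 and in the caudate putamen 27. At an unadjusted p under 0.05 the counts for stressed against control were 3, 0 and 3 in these regions, for stressed against resilient 14, 0 and 3, and for resilient against control 1, 0 and 1. The shares of all genes with such a p were 8.33%, 1.17% and 9.56% for stressed against control. They were 17.2%, 1.98% and 2.55% for stressed against resilient, and 1.43%, 0.779% and 8.25% for resilient against control. DESeq2 called 0 members in all of them except hippocampus, stressed against resilient, where it called Itga3, Lama4 and Lamc1 higher and 1.20% of all genes. With edgeR, 4 members were called in that comparison without stressed replicate 1. The share of all genes called in that fit is not given here. Of the hippocampal members tested, Itgam, Itgb3, Lama4 and Lamc3 passed the filter only because of the stressed libraries. With all libraries, 17.2% of all genes had an unadjusted p under 0.05 in the hippocampal comparison of stressed with resilient.

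The hippocampal libraries also varied within the stressed group. Itgb5 had 89.1, 82.5, 91.3, 201 and 199.7 CPM in stressed libraries 1 to 5, 75.5, 95.7 and 113 CPM in resilient and 154, 99.6 and 71.9 CPM in control libraries. Among the stressed libraries only replicates 4 and 5, of the short name form, stood high. Control replicate 1, at 154 CPM, is of the short form too, as are resilient replicates 1 and 2, at 75.5 and 95.7 CPM. Itgav had 8.21, 10.9, 17.0, 37.7 and 28.0 CPM in stressed, 7.49, 9.67 and 7.90 CPM in resilient and 17.0, 6.18 and 7.13 CPM in control libraries. Itgb1 had 13.8, 14.8, 21.9, 34.4 and 36.9 CPM in stressed, 11.4, 14.1 and 15.6 CPM in resilient and 19.7, 10.5 and 13.9 CPM in control libraries.

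Lamb1 and Itga3 took another pattern there. Lamb1 had 3.06, 16.6, 18.9, 2.17 and 4.30 CPM in stressed, 3.90, 3.33 and 3.28 CPM in resilient and 1.80, 4.34 and 8.21 CPM in control libraries of the hippocampus. The high values were those of stressed replicates 2 and 3, which carry the long name form and a length correlation of 0.463 and 0.56. Itga3 had 3.25, 11.1, 10.6, 5.73 and 9.41 CPM in stressed, 2.54, 2.98 and 2.89 CPM in resilient and 3.39, 5.18 and 7.69 CPM in control libraries. Lamc1 had 2.91, 6.64, 8.97, 6.45 and 9.86 CPM in stressed, 1.93, 2.59 and 1.83 CPM in resilient and 4.39, 1.54 and 2.55 CPM in control libraries, and its stressed libraries all lay above the resilient ones. For stressed against resilient Lamc1 changed by 1.71 ± 0.43 and Itga3 by 1.51 ± 0.41, both with an adjusted p of 0.268 and not called.

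Choroid plexus markers in the hippocampus summed to between 56.4 and 10868 CPM in stressed, 472 and 1935 CPM in resilient and 54.1 and 7746 CPM in control libraries, and the part of that tissue in the members' spread was not tested. Within the short form of the library name, stressed replicates 4 and 5 against resilient replicates 1 and 2, 7 members were called higher, Itga6, Itgav, Itgb1, Itgb5, Itgb8, Lamb2 and Lamc1, where 4.35% of all genes were called. Without stressed replicates 2 and 3, 0 members were called in the hippocampus.

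In the nucleus accumbens Itgb5 had 254, 241, 206 and 87.4 CPM in stressed, 96.1, 145 and 195 CPM in resilient and 87.5, 207 and 119.5 CPM in control libraries. The lowest library of each condition was the one with the long name form. Itgb1 had 38.5, 38.4, 31.8 and 21.2 CPM in stressed, 14.9, 24.5 and 28.8 CPM in resilient and 14.9, 31.3 and 21.7 CPM in control libraries. In the caudate putamen, where all names have the short form, Itgb5 had 252, 229.6 and 194 CPM in stressed, 169 and 167 CPM in resilient and 204 and 119.8 CPM in control libraries. Itgb1 had 43.3, 39.9 and 38.1 CPM in stressed, 32.5 and 26.7 CPM in resilient and 32.4 and 23.6 CPM in control libraries, so that each stressed library was above the others. The change of Itgb1 against control was 0.53 ± 0.18 with an unadjusted p of 0.0195 and an adjusted p of 0.482.

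**Figure D4:**
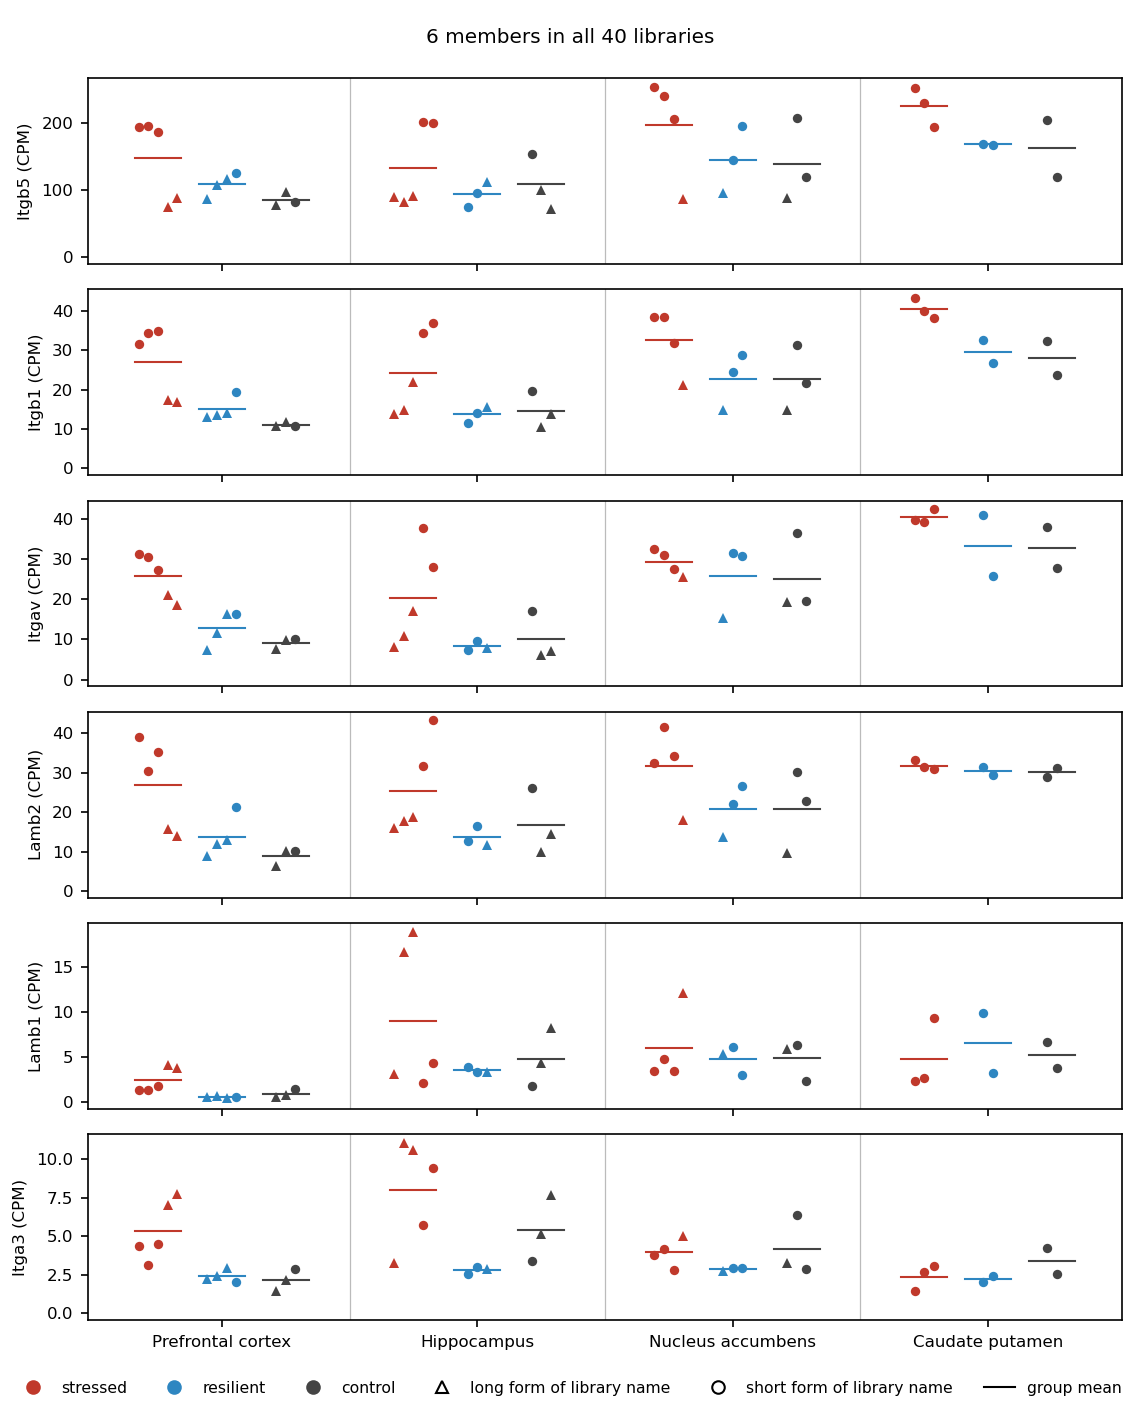
CPM (read counts scaled to library size) of Itgb5, Itgb1, Itgav, Lamb2, Lamb1 and Itga3 in the 40 libraries, by region and condition, with triangles for the long and circles for the short form of the library name and a line at the group mean. In the hippocampus stressed circles lie high for Itgb5, Itgb1, Itgav and Lamb2, and 2 stressed triangles lie high for Lamb1.

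Averaged over the 4 regions, stressed mice had 6 of 35 tested members called higher than control mice and 0 lower, 17.1%, where 10.2% of all 16759 genes were called, 5.79% higher. These were Lamc1 (0.88 ± 0.19, adjusted p = 0.00706), Itgb1 (0.76 ± 0.17, adjusted p = 0.00758), Itgav (0.74 ± 0.20, adjusted p = 0.0207), Lamb2 (0.72 ± 0.21, adjusted p = 0.0301), Itga7 (0.53 ± 0.16, adjusted p = 0.0328) and Itga6 (0.56 ± 0.17, adjusted p = 0.0341). Without the prefrontal cortex 0 members and 0% of all genes were called, and the log2 fold changes there were 0.59 for Itgb1 and 0.66 for Lamc1. Without the 6 libraries with a length correlation above 0.4 the count was 9, where 14.2% of all genes were called. The count was 0 without caudate putamen control replicate 2, 2 without hippocampus control replicate 2, 3 without prefrontal control replicate 1 or accumbens control replicate 1, and 10 without hippocampus stressed replicate 1, accumbens control replicate 2 or caudate putamen control replicate 1. The shares of all genes called without these single libraries are not given here. In the average, 2 of 14 microglia and macrophage markers and 0 of 12 endothelial, 0 of 9 mural cell and 0 of 13 neuron markers were called.

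Against resilient mice the average gave 10 of 35 members higher and 1 lower, 31.4%, where 19.1% of all genes were called, 11.7% higher and 7.46% lower. The members higher included Itga3 (0.81 ± 0.18, adjusted p = 0.00518), Itgb1 (0.67 ± 0.17, adjusted p = 0.00806), Lamc1 (0.73 ± 0.19, adjusted p = 0.00968), Itgav (0.69 ± 0.20, adjusted p = 0.0163), Lama2 (0.57 ± 0.17, adjusted p = 0.0181), Itga9 (0.95 ± 0.29, adjusted p = 0.0223), Itga6, Lamb2 and Itga7. Itgae was lower (−0.63 ± 0.16, adjusted p = 0.00976). Again 0 members and 0% of all genes were called without the prefrontal cortex. The count was 4 without caudate putamen resilient replicate 2, and 7 without accumbens or caudate putamen resilient replicate 1. The shares of all genes called without these single libraries are not given here. Without the 6 libraries with a length correlation above 0.4 the count was 11, where 26.5% of all genes were called. Of microglia and macrophage markers 9 of 14 were called higher in this average. Resilient against control gave 0 members by edgeR, with 0.0179% of all genes called. At an unadjusted p under 0.05 there were 3 members, where 8.32% of all genes had such a p.

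A difference between regions in the effect of stress was tested through the interaction of region and condition over all 40 libraries. It called 0 of 35 members for stressed against control, with 4 at an unadjusted p under 0.05, and 0 for stressed against resilient, again with 4. Of all 16759 genes 0 were called in either test, and 12.6% and 6.97% had an unadjusted p under 0.05. A call in the prefrontal cortex and none elsewhere is therefore not shown to be a difference between regions.

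In control mice several members differed between regions. The joint test over the 11 control libraries called 8 of 29 members, 27.6%, where 18.8% of all 16053 genes were called. Itga5, the alpha chain of the fibronectin receptor, had 1.39, 1.17 and 0.467 CPM in the prefrontal cortex, 0.799, 1.80 and 1.30 CPM in the hippocampus, 2.49, 2.65 and 1.76 CPM in the nucleus accumbens and 5.72 and 4.25 CPM in the caudate putamen (joint adjusted p = 0.0137). Itga9, a receptor chain for tenascin and other ligands, had 0.0817, 0.502 and 0.575 CPM in the prefrontal cortex, 0.399, 0.998 and 1.08 CPM in the hippocampus, 1.84, 2.17 and 1.07 CPM in the nucleus accumbens and 4.17 and 3.10 CPM in the caudate putamen (joint adjusted p = 0.0142). For both, the caudate putamen libraries lay above those of all other regions.

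Itgav had 7.64, 9.91 and 10.1 CPM in the prefrontal cortex, 17.0, 6.18 and 7.13 CPM in the hippocampus, 19.2, 36.5 and 19.5 CPM in the nucleus accumbens and 37.8 and 27.8 CPM in the caudate putamen (joint adjusted p = 0.0157). The nucleus accumbens and caudate putamen libraries of Itgav lay above those of the other regions. Itga1, a collagen receptor chain, was the hippocampal member, with 0.695, 1.21 and 1.47 CPM in the prefrontal cortex, 3.67, 4.49 and 3.59 CPM in the hippocampus, 0.727, 0.809 and 1.45 CPM in the nucleus accumbens and 0.488 and 1.72 CPM in the caudate putamen (joint adjusted p = 0.0172). The joint adjusted p was 0.0239 for Itgb8, 0.0315 for Itgb1, 0.0415 for Itga6 and 0.047 for Lamb1. Lamb1 had 0.531, 0.794 and 1.40 CPM in the prefrontal cortex, below every library of the other regions, which ran from 1.80 to 8.21 CPM.

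**Figure D5:**
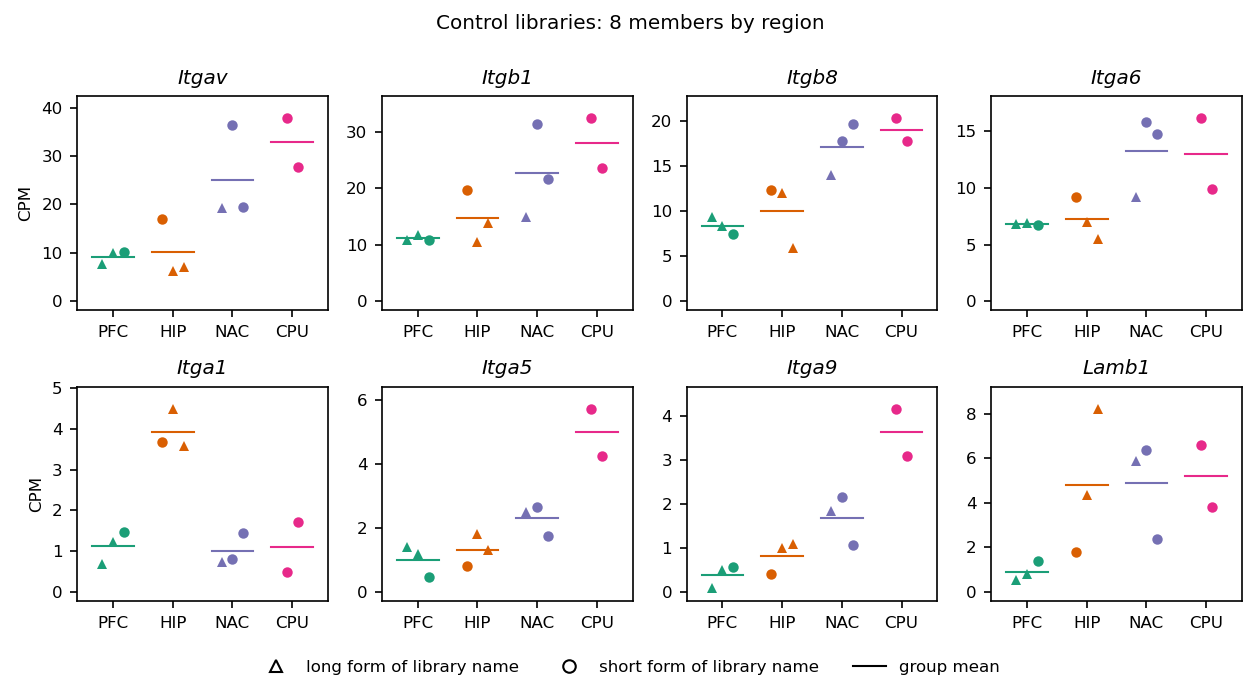
CPM (read counts scaled to library size) of the 8 members called by the joint test, in the 11 control libraries of prefrontal cortex (PFC), hippocampus (HIP), nucleus accumbens (NAC) and caudate putamen (CPU), with a line at each mean. Itga1 is high in the 3 HIP libraries, Itga5 and Itga9 in the 2 CPU libraries, and Lamb1 is low in the 3 PFC libraries.

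Set against the mean of the other 3 regions, the prefrontal cortex had 10 of 29 members called lower and 0 higher, 34.5%, where 12.7% of all genes were called, 6.72% lower. Lamb1 changed by −2.44 ± 0.55 (adjusted p = 0.018), Itga9 by −2.14 ± 0.52 (adjusted p = 0.0246), Itgb1 by −0.93 ± 0.25 (adjusted p = 0.0352) and Itgb8 by −0.84 ± 0.23 (adjusted p = 0.037). Lamb2, Itga7, Itga5, Lamc1, Lama5 and Itgav were the other 6, with log2 fold changes from −0.89 to −1.46. The hippocampus had 3 members higher, where 8.78% of all genes were called higher, Itga1 (1.86 ± 0.35, adjusted p = 0.00556), Itga2b (0.81 ± 0.21, adjusted p = 0.0284) and Itga4 (1.26 ± 0.34, adjusted p = 0.0319). The caudate putamen also had 3 higher, where 3.41% of all genes were, Itga5 (1.79 ± 0.35, adjusted p = 0.0135), Itga9 (2.15 ± 0.45, adjusted p = 0.0177) and Itgav (1.32 ± 0.33, adjusted p = 0.043). The nucleus accumbens had 0 called by edgeR, where 2.17% of all genes were called. It had 8 members at an unadjusted p under 0.05, where 14.7% of all genes had such a p. DESeq2 called 1 member there and 5.13% of all genes.

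The regional counts moved with single libraries, and the shares of all genes called in those fits are not given here. Whether the members moved more than all genes is thus not shown. The prefrontal count of 10 was 0 without prefrontal control replicate 1 or 2 and 1 without replicate 3, 5 and 4 without accumbens control replicates 2 and 3, and 2 and 5 without caudate putamen control replicates 1 and 2. The hippocampal count was 1 without any 1 of the 3 prefrontal control libraries and without hippocampal control replicate 2 or 3, and Itga1 was called in all 11 such fits. The caudate putamen count was 0 without either of its own control libraries, a fit that leaves that region 1 library, assumed to vary like the rest. The joint count was 4 without any 1 prefrontal control library, 13 and 5 without hippocampal control replicates 1 and 2, and 3 without caudate putamen control replicate 1. Caudate putamen control names are all of the short form and 2 of 3 prefrontal ones of the long form, and with the name form as a covariate the prefrontal count was 4 and the caudate putamen count 1. The fit with the covariate called 10.9% and 3.9% of all genes in these comparisons. With the gene length offset the prefrontal count was 2, where 11.4% of all genes were called.

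Other cell types' transcripts differed between these control regions too. For the prefrontal cortex against the other regions, 6.00% of all genes were called higher and 6.72% lower. In the prefrontal cortex 2 of 8 mural cell markers were called lower, with a summed level of 25.3 to 32.3 CPM there and 34.6 to 79.7 CPM elsewhere. Ependymal markers were lower in 4 of 4, at 9.78 to 12.0 CPM in the prefrontal cortex and 21.9 to 167 CPM elsewhere. Oligodendrocyte markers were lower in 8 of 12, at 849.99 to 1082 CPM in the prefrontal cortex and 1287 to 3123 CPM elsewhere. Striatal projection neuron markers were lower in 10 of 10, at 268 to 314 CPM in the prefrontal cortex and 533 to 3179 CPM elsewhere. Choroid plexus markers had 3 lower of 10, meningeal fibroblast markers 3 higher and 1 lower of 11, and astrocyte markers 1 higher and 2 lower of 14, while microglia and macrophage markers and endothelial markers had 0 called by edgeR. The part of these cell types in the regional differences of the members was not tested.

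Members called in no comparison by edgeR with all its libraries were Itga8, Itga11, Itgal, Itgb2, Itgb4, Itgb5, Itgb7, Lama3 and Lamb3 among those tested in the prefrontal cortex, and Itga2, Itga10, Itgad, Itgax, Itgb6 and Lama1 among those not tested there. Over the 40 libraries Itgb4 ran from 0.695 to 8.72 CPM, Lamb3, a laminin chain of epithelia, from 0.239 to 3.36 CPM, Lama3 from 0.245 to 2.31 CPM and Itga11 from 0.170 to 1.31 CPM. Itga8 ran from 0 to 3.28 CPM, Itgb7 from 0.104 to 1.41 CPM, Itgal from 0.0398 to 0.940 CPM and Itgb2 from 0 to 0.585 CPM. Itgad, Itga10, Itga2, Lama1, Itgb6 and Itgax did not exceed 0.722 CPM in any library.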

How the data were processed

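Ribosome-bound RNA was measured in 40 libraries of 12 groups, 4 regions by 3 conditions. The authors deposited raw read counts for each gene symbol. The submitters' processing notes name STAR 2.0.0e, HTSeq and the build mm10. How HTSeq counted, on which annotation and whether by strand, is not given in the sources used here, so genes with overlapping exons can have shared reads. Reads outside genes or not unique, 17.0% to 20.1% of those counted, and a row without a gene name, at most 1.9e-05% of counts, were left out. Members, lists and tests were chosen with earlier results of these data known. Counts cover all members, and the values of 1 member are not reported here.

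In R 4.3.3, edgeR 4.0.16 filtered genes (filterByExpr), scaled libraries by TMM and fitted its robust quasi-likelihood model, 1 fit per region with 3 conditions, 1 for the 11 control libraries and 1 for all 40. P-values were two-sided and adjusted over all genes tested. CPM used TMM-scaled sizes over all 40 libraries. SE is the log2 fold change over the root of F. CPM per kb used GENCODE M21 exon lengths. Members called within a region are given in every library, with fold changes for up to 8 per comparison by smallest adjusted p, up to 8 members by joint p for control regions, and up to 3 genes per direction of each pathway list. Those named beyond this, such as Itgb5 and Itgb8, were chosen after their values were seen.

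Checks on simulated counts with 200 changed genes recovered 55% of 2-fold and 87% of 4-fold changes in the prefrontal comparison of stressed with control (15304 genes), and 23% and 80% in the hippocampal one (15563 genes). Each of 52 replicate pairs differed beyond counting error, with a chi-square of 8.25 to 293 per degree of freedom. Alternatives were RLE scaling, no filter, a replicate block, a gene length offset, DESeq2 1.42.0, single libraries or regions left out, splits by name form, and 1 fit of all libraries. Leaving out each of 40 libraries for the averages, and leaving out libraries with a length correlation over 0.4, were chosen after seeing the data.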

Additional observations from a re-analysis of the deposited data

Results flagged for a closer look

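Of 77 groups of 4 or 5 libraries in which a member averaged at least 1 CPM, 3 held a library far from the others, and chance flags about 1 in 20. Itga1 stood at 1.19 CPM in hippocampal stressed replicate 4, and the other 4 stressed libraries ran from 3.10 to 3.40 CPM. Itga6 stood at 9.34 CPM in accumbens stressed replicate 4, and the other 3 ran from 19.9 to 20.6 CPM. Lamb1 stood at 12.1 CPM in the same accumbens library, against 3.46 to 4.82 CPM in the other 3. That library has the long form of name, the other 3 the short one, and its length correlation was 0.458. No member was called between conditions in either region, while Itga6 was called in the averages over the 4 regions, which include that accumbens library.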

How the results depend on the processing

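Counts below are members called. With a gene length offset they were 6 in the prefrontal comparison of stressed with control, 6 in the average of stressed with resilient and 2 for the prefrontal cortex against the other regions in control mice. In these fits 32.1%, 22.1% and 11.4% of all genes were called. For hippocampal stressed against resilient the count was 7 within the short name form, 5 in 1 fit of all 40 libraries and 3 with DESeq2. The short-form prefrontal fit holds a lone resilient and a lone control library, so its counts are not listed here. In these hippocampal fits 4.35%, 7.55% and 1.20% of all genes were called, in that order. The average of stressed with control gave 0 without the prefrontal cortex, 3 without the hippocampus, 11 without the caudate putamen and 10 with DESeq2. There 0%, 5.11%, 21.05% and 16.8% of all genes were called. The average of stressed with resilient gave 0, 2 and 17 without these regions, where 0%, 5.09% and 29.8% of all genes were called. Among control regions, the joint count was 17 in 1 fit of all 40 libraries and 16 with DESeq2, the prefrontal count 4 and the caudate putamen count 1 with the name form as a covariate, the caudate putamen count 5 with DESeq2, and the accumbens count 1 both in 1 fit of all 40 libraries and with DESeq2. The shares of all genes called were 27.4% and 30.6% (joint), 10.9% (prefrontal), 3.9% and 9.855% (caudate putamen) and 3.765% and 5.13% (accumbens). The cause of these shifts was not tested.

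With a replicate block the counts were 9 and 10 in the prefrontal comparisons of stressed with control and with resilient, 6 and 10 in the averages, and 3 (joint), 2 (prefrontal cortex), 1 (hippocampus) and 0 (caudate putamen) among control regions. In the same order 18.6%, 19.3%, 7.79%, 15.9%, 11.3%, 8.09%, 8.88% and 2.34% of all genes were called. The correlation of same-numbered libraries ran from −0.315 to 0.198 in the prefrontal cortex, −0.327 to 0.835 in the hippocampus, −0.364 to 0.774 in the accumbens (median 0.411, 6 of 9 pairs over 0.1) and −0.508 to 0.247 in the caudate putamen. Not every pair was over 0.1 in any region, and pairs of other numbers had a median of −0.1965 in the accumbens. Whether same-numbered libraries share more than a number is not given in the labels, and a rule on every pair cannot exclude it.

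With 1 library left out, the counts ran from 3 to 11 and from 4 to 11 in the prefrontal comparisons of stressed with control and with resilient, from 0 to 4 in the hippocampal comparison of stressed with resilient, from 0 to 10 and from 4 to 13 in the averages, and from 3 to 13 (joint), 0 to 10 (prefrontal), 1 to 4 (hippocampal), 0 to 1 (accumbens) and 0 to 4 (caudate putamen) among control regions. The accumbens count was 1 without hippocampal control replicate 1. The other counts stayed at 0. The shares of all genes called in the fits without 1 library are not given here. These ranges are therefore not shown to be particular to the members.

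The log2 fold change turned negative for Itgb5 against control within the long form (−0.14) and without stressed replicates 1 to 3 (−0.12), and against resilient likewise (−0.36 and −0.43). For Itgb8 it did with the length offset, against control (−0.063) and resilient (−0.19). Neither gene was called by edgeR with all libraries and no block, while DESeq2 called both against control (adjusted p = 0.0393 for Itgb5 and 0.0432 for Itgb8), and the replicate block called Itgb5 (0.99, adjusted p = 0.045). The nucleus accumbens within the long form could not be fitted. Low counts limit what can be said of Lamc3, Lama4, Itgam and Itgb3, with few reads per library.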
